A study of Drosophila melanogaster with 3 samples.

Results

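The proteasome degrades proteins that carry ubiquitin chains, and its subunit genes were followed here in a chromatin immunoprecipitation sequencing (ChIP-seq) study of the Drosophila melanogaster protein CG8159. They were chosen by symbol, as the protein-coding genes of the Ensembl annotation whose symbols begin with Prosalpha, Prosbeta, or Rpn or Rpt and a digit. This gave 48 of 13945 protein-coding genes, with 25 genes of the core particle and 23 of the regulatory particle. Of the 48 genes, 16 have symbols that end in T or R and are named here as paralogs of another subunit gene, and the other 32 are called subunit genes. The symbol rule uses no measured value, but the group was chosen with earlier results of these data known.

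Chromatin came from whole pupae aged 24 hours, with males and females pooled, of 1 transgenic fly line that stably expresses CG8159 with green fluorescent protein (GFP) at its C terminus. It was sheared by sonication and precipitated with an antibody against GFP. The 3 samples are biological replicates of 1 group, and there is no second condition, so the spread between them is that of separate samples of the same line. Whole pupae mix all tissues, and a site bound in few cells cannot be told apart from one bound weakly in many.

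The 26S proteasome is a barrel-shaped core particle capped by a regulatory particle. The outer rings of the core are built of alpha subunits and gate the entry, and the inner rings are built of beta subunits, some of which hold the proteolytic sites. In the regulatory particle, the base holds the ring of Rpt ATPases that unfolds substrates, and the lid holds the enzyme that removes ubiquitin. In Drosophila, many of the T and R paralogs are known from the male germ line.

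The authors deposited 5 peak lists on the dm6 assembly. These are 1 list of 30000 peaks for each replicate, 1 pooled list of 30000 peaks called on the 3 replicates together, and 1 list of 10239 peaks that passed the irreproducible discovery rate (IDR) procedure. The signal of a peak is the authors' own value on a scale that differs between lists, so it is read here as a rank within its list. The median signal was 526 in the IDR list and 70.7, 48.3 and 49.5 in the lists of replicates 1, 2 and 3. Read depth is unknown. A gene was counted as having a promoter summit where the highest base of a peak lay within 500 bp of any of its annotated start sites, on either side.

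Over all 48 proteasome genes, CG8159-GFP promoter summits were about as frequent as over all coding genes. In the IDR list, 10 of the 48 proteasome genes (20.8%) had one, against 22.9% of all protein-coding genes (3190 of 13945), a share near the background. All 10 were among the 32 subunit genes (31.2%), and none of the 16 paralogs had one. The 10 genes were Prosalpha3, Prosalpha4, Prosbeta1 and Prosbeta2 of the core particle, Rpn2 and Rpn13 of the base, and Rpn3, Rpn5, Rpn8 and Rpn11 of the lid. None encodes an Rpt ATPase. All 10 summits lay upstream of the start site, and no test was made over genes, since genes of 1 complex are not replicates.

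The DNA under the summits is shown first for 6 of the 10 genes, from both particles and from the highest to the low end of the signal. Each line gives 101 bases of the dm6 reference centred on the IDR summit, 5′ to 3′ on the strand of the subunit gene, with the 11 bases around the summit in capitals. The line of Rpn5 ends after 76 bases, where an untranslated exon of the neighbouring gene begins. The windows are chrX:16276004-16276104 on the plus strand for Prosalpha4, chr3L:14999794-14999894 on the plus strand for Prosbeta2, chr3R:29153389-29153489 on the plus strand for Rpn2, chr2L:19051669-19051769 on the plus strand for Rpn3, chr3R:5789253-5789328 on the plus strand for Rpn5 and chr2L:5059926-5060026 on the minus strand for Rpn11.
Prosalpha4: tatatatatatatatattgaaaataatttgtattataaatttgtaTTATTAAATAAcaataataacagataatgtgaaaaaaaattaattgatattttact
Prosbeta2: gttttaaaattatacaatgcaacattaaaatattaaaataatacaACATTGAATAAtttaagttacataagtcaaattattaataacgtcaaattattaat
Rpn2: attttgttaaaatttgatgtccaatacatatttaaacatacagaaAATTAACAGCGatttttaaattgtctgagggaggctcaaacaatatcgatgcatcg
Rpn3: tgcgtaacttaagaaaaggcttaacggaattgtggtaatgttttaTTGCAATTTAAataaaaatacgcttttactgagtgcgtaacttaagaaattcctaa
Rpn5: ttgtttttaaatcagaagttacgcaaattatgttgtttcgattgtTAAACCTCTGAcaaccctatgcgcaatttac
Rpn11: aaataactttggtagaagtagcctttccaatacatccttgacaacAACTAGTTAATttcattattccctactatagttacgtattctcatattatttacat

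These windows are rich in A and T. The share of A and T was 90.1% in the window of Prosalpha4 and 85.1% in that of Prosbeta2. It was 70.3% for Rpn2 and for Rpn3, 71.3% for Rpn11 and 67.1% in the shortened window of Rpn5. Over the 101-base windows of all 10 genes the median was 70.3% (range 55.4% to 90.1%), against 68.3% over all 2904 IDR summits within 500 bp of a coding start site (quartiles 59.4% and 74.3%). Prosalpha4, Prosbeta2 and Rpn13 (76.2%) lay above the upper quartile, and the median was within the quartiles. In 3 of the windows a run of 12 or more bases occurs again without overlap. The run is 16 bases long in Rpn3, starting at bases 1 and 79 of the window, 14 bases long in Prosbeta2, starting at bases 71 and 88, and 12 bases long in Prosalpha4, starting at bases 25 and 38. A repeat of 12 or more bases was present in 1.52% of the windows of all coding promoter summits (44 of 2904). The repeats were looked for after the sequences had been read, so these values are a description.

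**Figure D1:**
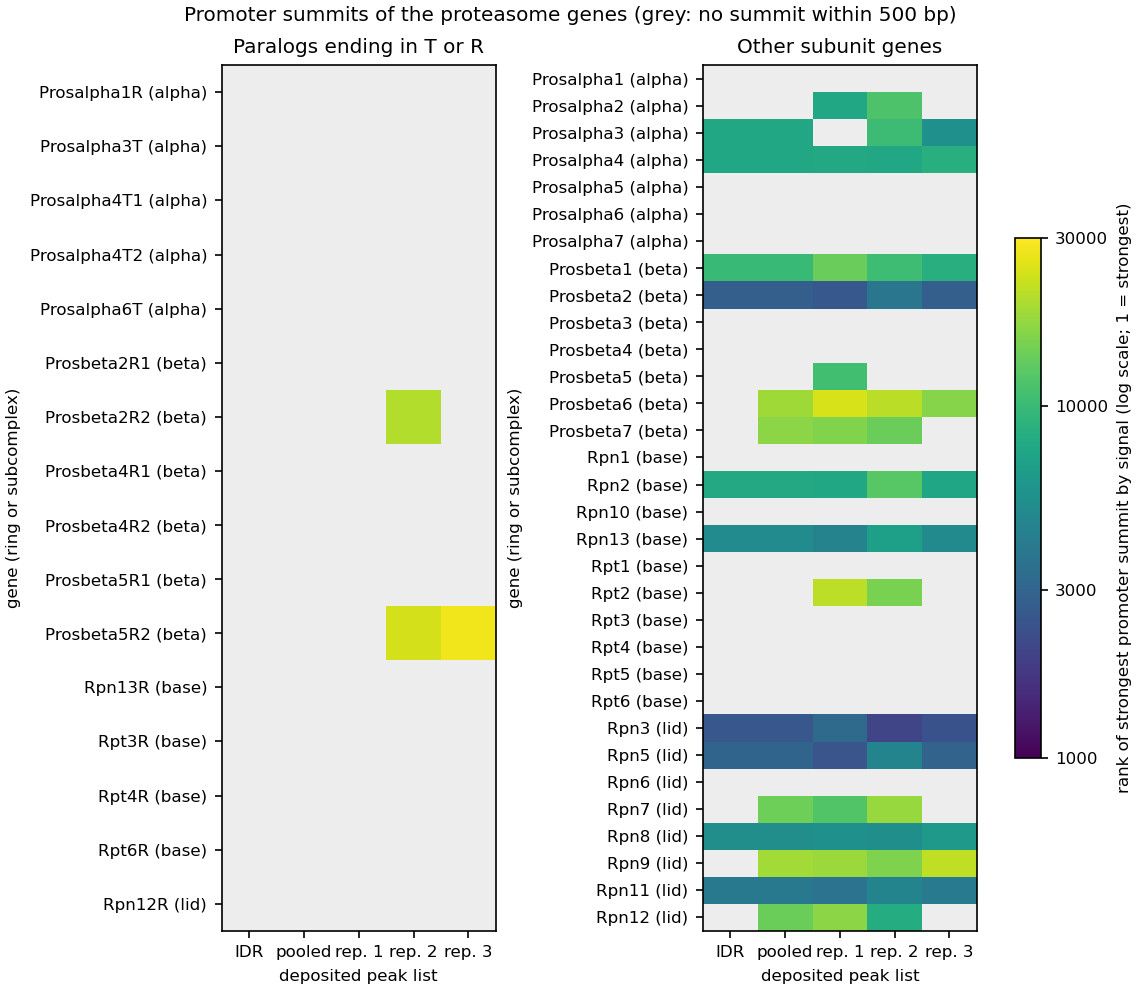
Promoter summits of all 48 proteasome genes in the 5 deposited peak lists. Rows are genes grouped by ring or subcomplex, columns are lists, colour is the rank of the strongest promoter summit by signal on a log scale (1 is the strongest) and grey marks genes with no summit within 500 bp. The 10 genes of the IDR column recur in the pooled column, the Rpt and paralog rows are mostly grey, and 28 genes are grey throughout.

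In the core particle, 2 alpha and 2 beta subunit genes had IDR promoter summits. Prosbeta2 encodes the subunit with the trypsin-like site, and its summit, in a peak at chr3L:14999770-14999942, was the strongest of the core. It lay at −107 bp from the start site with a signal of 941, rank 2814 of 10239. Its signal was 427, 206 and 293 in replicates 1, 2 and 3, at ranks 2539, 3802 and 2809. The mean rank was 3050 ± 665 (SD, n = 3), so all 3 replicates placed this peak in the upper part of their lists. Prosalpha4, an outer ring subunit gene, had its peak at chrX:16275846-16276261, at −216 bp, with an IDR signal of 343. Its replicate signals were 146, 104 and 96.7, at ranks 7811, 7537 and 8383 (mean 7910 ± 432, SD, n = 3). This peak was in the lower part of the IDR list, but it was among the strongest 10239 peaks of every replicate, and its rank varied little.

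Prosalpha3 and Prosbeta1 were the least repeatable core sites. Prosalpha3, another outer ring subunit gene, had a peak at chr2R:20994590-20995005, at −102 bp, with an IDR signal of 344. Replicate 1 had no summit within 500 bp, its nearest lying 1798 bp away, and replicates 2 and 3 had signals of 74.9 and 153, at ranks 10244 and 5510. The site was therefore seen in 2 of the 3 replicates. Prosbeta1, which encodes the subunit with the caspase-like site, had a peak at chr2R:16014674-16015089, at −95 bp. Its IDR signal was 252, close to the lowest of the list (246), at rank 10040. Its replicate signals were 77.9, 73.3 and 96.6, at ranks 13809, 10467 and 8389 (mean 10888 ± 2734, SD, n = 3). Only replicate 3 ranked either of these peaks among its strongest 10239.

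In the regulatory particle, the base contributed 2 genes, neither of them an ATPase. Rpn13 encodes a ubiquitin receptor, and its peak at chr2R:13960278-13960693 lay at −82 bp with an IDR signal of 518. Its replicate signals were 251, 115 and 166, at ranks 4563, 6845 and 5074 (mean 5494 ± 1198, SD, n = 3). Rpn2 encodes the scaffold that holds Rpn13 in the base, and its peak at chr3R:29153231-29153646 lay at −85 bp with an IDR signal of 336. Its replicate signals were 151, 60.7 and 109, at ranks 7608, 12364 and 7507 (mean 9160 ± 2775, SD, n = 3). Replicate 2 was the low one for both genes by rank. Of the 6 Rpt genes, which encode the ATPase ring, none had a summit in the IDR or pooled list. The shares of all protein-coding genes there were 22.9% and 37.1%, so few would be counted among 6 genes in any case. Rpt2 had weak summits in replicate 1 (signal 45.4, rank 21417) and replicate 2 (signal 48.1, rank 15044).

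The lid held the most occupied genes in the IDR list, 4 of 8 against 22.9% of all protein-coding genes, and the single strongest site. Rpn3, a scaffold subunit of the lid, had its peak at chr2L:19051511-19051926, at −71 bp, with an IDR signal of 1037 at rank 2530. Its replicate signals were 347, 355 and 342, at ranks 3231, 2034 and 2342 (mean 2536 ± 622, SD, n = 3). Rpn5, another scaffold subunit, had its peak at chr3R:5789095-5789510, at −190 bp, with an IDR signal of 887. Its replicate signals were 439, 170 and 281, at ranks 2465, 4621 and 2951 (mean 3346 ± 1131, SD, n = 3). Rpn3 and Rpn5 stood above the median signal of all coding promoter summits (558) in the IDR list.

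Rpn11 and Rpn8 form the pair that carries the deubiquitinating activity of the lid, with Rpn11 as the enzyme and Rpn8 as its partner. The Rpn11 peak at chr2L:5059768-5060183 lay at −186 bp with an IDR signal of 683, and its replicate signals were 310, 169 and 207, at ranks 3663, 4632 and 4068 (mean 4121 ± 487, SD, n = 3). A second summit further upstream of Rpn11 was in the pooled list at −390 bp (signal 138) and in replicate 1 at −342 bp (signal 200). It was also in replicate 2 (signal 22 at −343 bp) and replicate 3 (signal 28.6 at −374 bp). The Rpn8 peak at chr2R:24402677-24403092 had an IDR signal of 503, with replicate signals of 211, 145 and 134, at ranks 5496, 5448 and 6240 (mean 5728 ± 444, SD, n = 3). It lay at −120 bp from an internal start site, 2977 bp downstream of the 5′-most one and inside an intron of the longer transcript. Counted from the 5′-most start site alone, Rpn8 had no promoter summit.

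**Figure D2:**
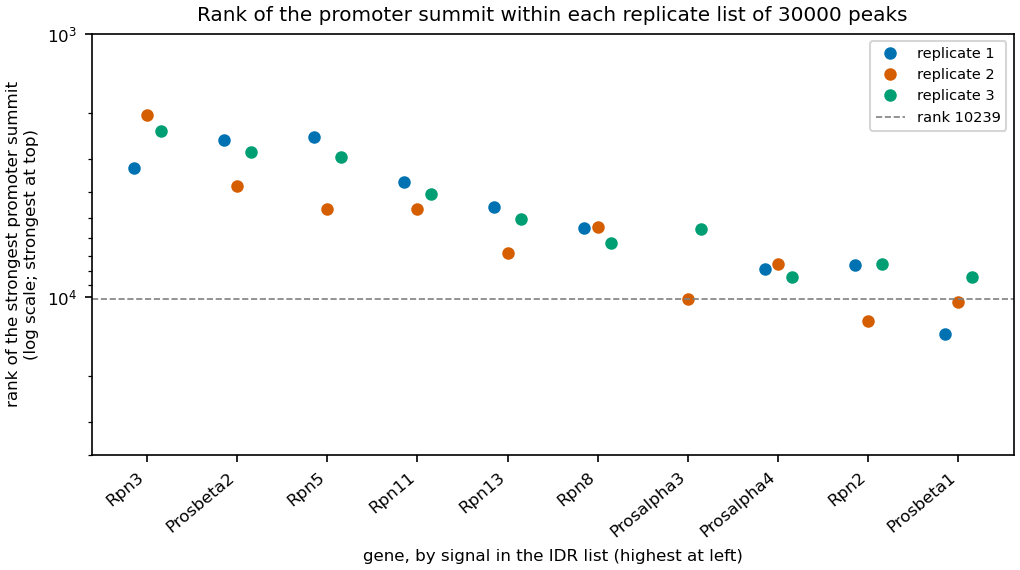
Rank of the strongest promoter summit of each of the 10 genes in the 3 replicate lists of 30000 peaks, on a log scale with the strongest at the top; genes run from the highest IDR signal at the left to the lowest at the right, and the dashed line marks rank 10239. Rpn3 sits near the top in all 3 replicates (2034 to 3231), while Rpn2, Prosbeta1 and Prosalpha3 have a replicate below the line or missing.

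Across replicates, 7 of the 10 sites were held by the strongest 10239 peaks of all 3 replicates. This left 7 of 48 proteasome genes, against 18.3% of all protein-coding genes with a promoter summit in such an IDR peak. Over the whole IDR list, 78.3% of peaks were held by all 3 replicates. Among the 5119 IDR peaks of highest signal, 4 proteasome genes remained (Prosbeta2, Rpn3, Rpn5 and Rpn11), against 13.5% of all protein-coding genes. The median signal of the 10 summits was 510.5, against 558 for all coding promoter summits (quartiles 346 and 1162), and 4 of the 10 were above that median. As a class the sites were of ordinary strength.

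In the replicate lists taken whole, more genes had a promoter summit, as they did among all genes. The pooled list gave 15 of 48 proteasome genes, against 37.1% of all protein-coding genes. Replicates 1, 2 and 3 gave 17, 19 and 13, against 40.7%, 39.7% and 36.9%. The mean over replicates was 34.0% ± 6.36 of proteasome genes and 39.1% ± 1.97 of all protein-coding genes (SD, n = 3 each). With the strongest 10239 peaks of each replicate, the counts were 9, 8 and 10, against 24.8%, 23.7% and 22.7%. These means were 18.8% ± 2.05 of proteasome genes and 23.7% ± 1.05 of all protein-coding genes (SD, n = 3 each). The share over all 48 genes was below that of all coding genes in each list, by less than the replicate spread in the whole lists and by more than it with the strongest 10239 peaks.

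The 48 genes join 2 groups that lay on either side of all coding genes, the 16 paralogs below and the 32 subunit genes above. Subunit genes had a promoter summit in 31.2% of cases in the IDR list and 46.9% in the pooled list, against the 22.9% and 37.1% of all coding genes given above. In the whole lists of replicates 1, 2 and 3 the share of subunit genes was 53.1%, 53.1% and 37.5%, against 40.7%, 39.7% and 36.9% of all coding genes. With the strongest 10239 peaks it was 28.1%, 25% and 31.2%, against 24.8%, 23.7% and 22.7%. The subunit genes were thus the higher group in every list, by little in replicate 3 taken whole and in the strongest peaks of replicate 2. Neither direction was tested. Split by the layout of neighbouring genes, as given below, the IDR shares of subunit genes were near those of all coding genes. In the pooled list, 47.6% of subunit genes with a gene starting divergently upstream had a summit, and 45.5% of those without. Shares of all coding genes by layout were computed for the IDR list only, and the part of layout was not tested.

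The regulatory particle had the higher share of occupied genes, by a margin that depended on the list. Among subunit genes, 4 of 14 core genes (28.6%) and 6 of 18 regulatory genes (33.3%) had an IDR promoter summit. With the strongest peaks of each replicate, the shares were 21.4% ± 7.15 of core genes and 33.3% ± 0 of regulatory genes (SD, n = 3 each), and the core was the lower one in all 3 replicates without overlap. With all peaks they were 45.2% ± 8.26 of core genes and 50% ± 9.64 of regulatory genes, and the 2 ranges overlapped. Without any 1 of the replicates the core count was 2 of 14, while the regulatory count was 5 to 6 of 18. Over all coding genes the share was 22.9% in the IDR list. It was 23.7% ± 1.05 with the strongest replicate peaks and 39.1% ± 1.97 with all peaks (SD, n = 3 each). The regulatory particle was itself uneven. The lid had 4 of 8 genes in the IDR list and 54.2% ± 7.22 in the strongest replicate peaks, while the base had 2 of 10 genes and 16.7% ± 5.77 (SD, n = 3 each). With all replicate peaks the lid had 79.2% ± 14.4 and the base 26.7% ± 5.77 (SD, n = 3 each). Within the base, the IDR list had 0 of 6 Rpt genes and 2 of 4 of the other base genes, so these 4 genes had the same share there as the lid. In the strongest replicate peaks the lid had 54.2% ± 7.22 and these 4 genes 41.7% ± 14.4, and with all peaks the 4 genes had 50% ± 0 and the Rpt genes 11.1% ± 9.64 (SD, n = 3 each). In the IDR list the share of the base (20%) was near the 22.9% of all coding genes, and neither of its 2 genes was an Rpt gene. These few genes were not tested against each other. In the core, 2 of 7 alpha genes and 2 of 7 beta genes had an IDR summit.

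A further 10 genes had a promoter summit in the pooled or replicate lists and not in the IDR list. The 5 found in the pooled list but not in the IDR list were 3 lid genes, Rpn7 (signal 167, at −123 bp), Rpn9 (116, at −212 bp) and Rpn12 (169, at −189 bp), and 2 beta ring genes, Prosbeta6 (119, at −8 bp) and Prosbeta7 (137, at −6 bp). For Rpn9 and Prosbeta7 the distance is from an internal start site, and the summit lay downstream of the 5′-most one. Prosbeta6 had signals of 38.2, 31.8 and 44.9 in replicates 1, 2 and 3, and Rpn9 had 56.9, 46.3 and 32.3, so both were in all 3 replicate lists. With these, 7 of the 8 lid genes had a summit in the pooled list, against 37.1% of all protein-coding genes, Rpn6 being the exception. The other 5 genes had a promoter summit in replicate lists only. They were Prosalpha2 and Rpt2 in replicates 1 and 2, Prosbeta5, the gene of the chymotrypsin-like subunit, in replicate 1 (signal 104), and 2 paralogs. Prosalpha2 had signals of 151 and 65.1 there, at −156 and −157 bp, at ranks 7563 and 11607, with the nearest pooled summit 11387 bp away. In replicate 1 it ranked ahead of the IDR genes Rpn2, Prosalpha4 and Prosbeta1, and Rpn12, at rank 8183 in replicate 2, ranked ahead of Rpn2, Prosalpha3 and Prosbeta1 there. In all, 11 genes were in all 3 replicate lists, 7 in 2, 2 in 1 and 28 in none.

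The 28 genes without a promoter summit in any list were 14 paralogs and 14 subunit genes. The subunit genes were Prosalpha1, Prosalpha5, Prosalpha6 and Prosalpha7 of the outer rings, Prosbeta3 and Prosbeta4 of the inner rings, Rpn1, the ubiquitin receptor gene Rpn10 and Rpt1, Rpt3, Rpt4, Rpt5 and Rpt6 of the base, and Rpn6 of the lid. For the 38 genes without an IDR promoter summit, the nearest IDR summit lay 1136 to 44981 bp from a start site, with a median of 8180 bp, against 7302 bp for all coding genes without one. In the IDR list the gene just inside the 500 bp limit was Prosalpha4 at 216 bp and the gene just outside it was Prosbeta4R2 at 1136 bp. The gap was narrower in replicate 2, with Prosbeta5R2 inside at 462 bp and Rpt3 outside at 767 bp, and its count of 19 genes became 18 at a limit of 250 bp and 20 at 1000 bp.

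The 16 paralogs had no promoter summit in the IDR list or in the pooled list. They are Prosalpha1R, Prosalpha3T, Prosalpha4T1, Prosalpha4T2, Prosalpha6T, Prosbeta2R1, Prosbeta2R2, Prosbeta4R1, Prosbeta4R2, Prosbeta5R1, Prosbeta5R2, Rpn12R, Rpn13R, Rpt3R, Rpt4R and Rpt6R. The 32 subunit genes had 10 and 15 in these lists. Prosbeta2R2 had a weak summit in replicate 2 (signal 33.6, rank 20183, at −91 bp), and Prosbeta5R2 had weak ones in replicate 2 (signal 27.1, rank 23938, at 462 bp downstream) and replicate 3 (signal 24.3, rank 28054, at −190 bp). Over the replicate lists taken whole, 6.25% ± 6.25 of paralogs and 47.9% ± 9.01 of subunit genes had a promoter summit (SD, n = 3 each), and the paralog share was the lower one in each replicate. The direction was the same in every list, and the difference was not tested over genes.

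Taken by pairs, the 16 paralogs belong to 12 subunit genes, and 4 of these 12 had an IDR promoter summit. Those were Prosalpha3, Prosalpha4, Prosbeta2 and Rpn13, with 6 paralogs among them, none of which had one. Of the 20 subunit genes without a paralog, 6 had an IDR promoter summit. The nearest IDR summit was a median of 11056 bp from a start site of a paralog and 3464 bp from a start site of a subunit gene, with 4739 bp over all coding genes. Prosbeta4R2 and Rpn8 were the 2 proteasome genes with an IDR summit inside the gene body.

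Paralogs also differed from the other subunit genes in what lies upstream. A gene on the other strand with its start site within 500 bp upstream, a divergent neighbour, was present for 18.8% of paralogs (3 of 16) and 65.6% of subunit genes (21 of 32), against 29.6% of all coding genes. Among all coding genes, 36.1% of those with a divergent neighbour and 17.3% of those without had an IDR promoter summit. Among proteasome genes, 8 of 24 with a divergent neighbour and 2 of 24 without had one. For subunit genes alone the counts were 8 of 21 (38.1%) and 2 of 11 (18.2%), near the 36.1% and 17.3% of all coding genes. For paralogs they were 0 of 3 and 0 of 13. Genes with several annotated start sites have more chances to be counted. Of the 36 proteasome genes with 1 start site, 7 had an IDR promoter summit, against 16.8% of all coding genes with 1 start site. The 36 genes include 14 paralogs, and all 7 were among the 22 subunit genes with 1 start site. The part of neighbour layout in the difference between paralogs and subunit genes was not tested.

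The 10 IDR summits all lay upstream of the nearest start site of the gene, between −216 and −71 bp with a median of −104.5 bp, against a median of −127 bp for all coding promoter summits. Of the 2904 coding promoter summits, 76.4% were upstream (2218). These were measured from the nearest start site of any coding gene, and the 10 from that of the subunit gene, so the measures differ. Measured from the nearest start site of any coding gene, Prosalpha4 lay at 126 bp, Rpn5 at 81 bp and Prosbeta1 at −26 bp. The span from −216 to −71 bp is set by the 10 summits themselves, and 39.3% of all coding promoter summits fell in it. In 9 of the 10 cases another gene also had a start site within 500 bp of the summit, Rpn11 being the exception. The neighbours were dgt3, the gene of an augmin subunit, for Prosalpha3, the katanin subunit gene kat80 for Prosalpha4, the exosome subunit gene Rrp42 for Prosbeta1 and the mitochondrial ribosomal protein gene mRpL39 for Prosbeta2. They were the histone mRNA binding protein gene Slbp for Rpn2, the cathepsin gene CtsL1 for Rpn13, l(2)37Bb for Rpn3, the histone acetyltransferase gene Hat1 for Rpn5 and the kinase gene Slik for Rpn8. The summit lay upstream of both genes in 7 cases. It was nearest to the proteasome gene in 7 cases and nearer to the neighbour for kat80, Rrp42 and Hat1. With kat80 and Hat1 it lay downstream of the neighbour's start site, at 126 and 81 bp, in an intron. For shared promoters, which of the pair a peak belongs to cannot be told apart.

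**Figure D3:**
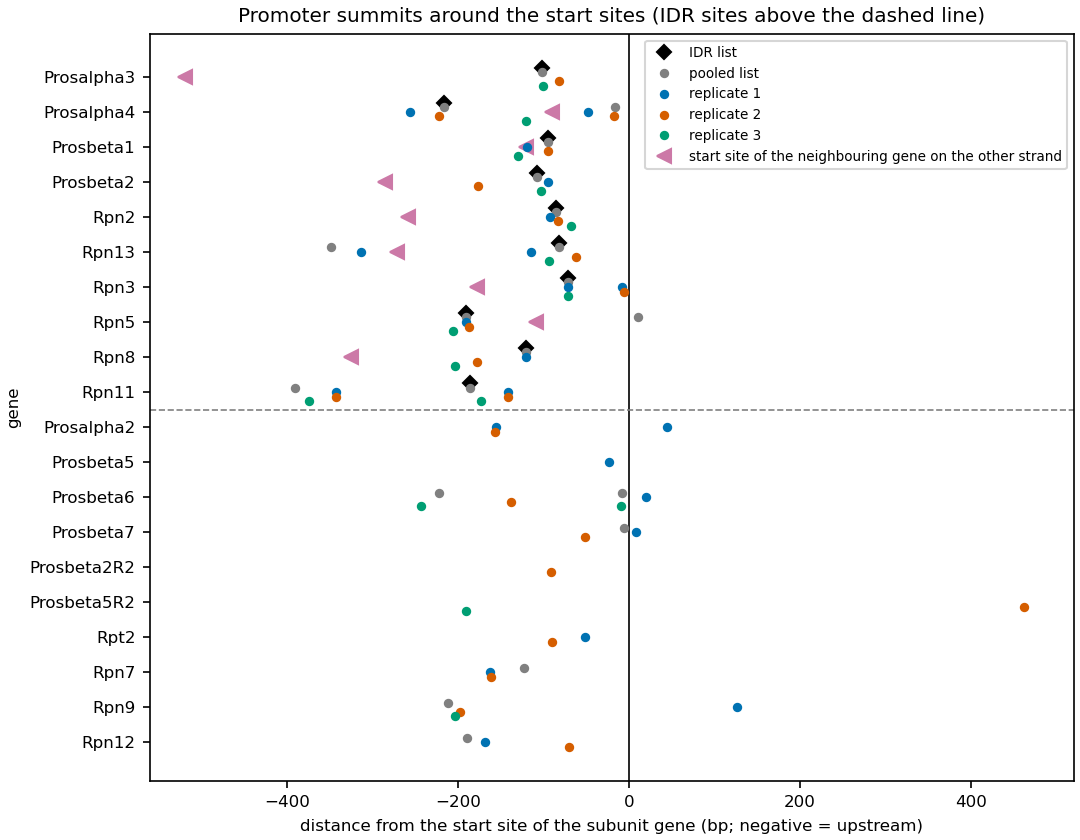
Distance of promoter summits from the start site of the subunit gene in bp, negative upstream; diamonds are IDR summits, circles are the pooled and replicate lists, and triangles mark start sites of neighbouring genes on the other strand. Genes above the dashed line have an IDR summit, and all 10 of their diamonds lie between −216 and −71 bp.

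Replicate summits lay close together for some genes and further apart for others. They were closest for Rpn5, at −190, −187 and −206 bp, and for Rpn2, at −92, −83 and −68 bp. For Prosbeta2 they lay at −95, −176 and −103 bp and for Rpn8 at −120, −178 and −203 bp. Among the 9 IDR genes with a summit in all 3 replicates, the spread was widest for Prosalpha4, with −256, −222 and −120 bp. For Rpn3, replicates 1 and 3 both placed it at −71 bp and replicate 2 at −6 bp. Prosalpha4 and Rpn13 also had second summits in the pooled list, at −16 bp (signal 202) and −349 bp (signal 182).

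The promoters of subunit genes and paralogs also differed in sequence. Motifs were searched as exact letters on both strands from 250 bases before to 50 after the 5′-most start site. The DRE, TATCGATA, the site of the factor DREF at many housekeeping promoters of Drosophila, was in none of the 16 paralog promoters and in 12 of 32 subunit gene promoters (37.5%), against 9.36% of all coding promoters. The 4 stretches below show this, with the 100 bases before the start site, 5′ to 3′ on the gene's strand, and the DRE in capitals where one is present. They are chrX:5808854-5808953 on the plus strand for the paralog Prosbeta2R1, chr3L:14999851-14999950 on the plus strand for Prosbeta2, which has an IDR summit, and chr2L:10221251-10221350 on the plus strand and chr3L:16610419-16610518 on the minus strand for Prosalpha6 and Prosbeta6, which have none.
Prosbeta2R1: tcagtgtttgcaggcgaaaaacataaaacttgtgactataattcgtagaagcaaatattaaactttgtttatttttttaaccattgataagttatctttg
Prosbeta2: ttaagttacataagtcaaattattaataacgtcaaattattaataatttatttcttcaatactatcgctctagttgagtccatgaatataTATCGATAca
Prosalpha6: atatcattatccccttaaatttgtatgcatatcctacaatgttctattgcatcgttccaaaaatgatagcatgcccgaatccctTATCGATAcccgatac
Prosbeta6: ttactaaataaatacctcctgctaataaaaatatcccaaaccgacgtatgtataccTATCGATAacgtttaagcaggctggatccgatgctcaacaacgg

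The DRE occurred in subunit gene promoters with a CG8159-GFP IDR summit (50%) and without one (31.8%), a difference that was not tested. It was in 5 of the 10 subunit gene promoters with an IDR summit (Prosalpha3, Prosbeta1, Prosbeta2, Rpn3 and Rpn13) and in 7 of the 22 without (Prosalpha5, Prosalpha6, Prosbeta6, Rpn7, Rpn9, Rpn12 and Rpt5). Among all coding promoters it was in 12.4% of those with an IDR summit and 9.36% overall. The DRE and the summit coincided in few cases. The centre of the DRE lay 10 bp from the summit at Prosalpha3 and at −22 bp from it at Prosbeta1, and at 100, −122 and −132 bp from it at Prosbeta2, Rpn3 and Rpn13. Within the 101 bases around the summit, 2 of the 10 genes had a DRE, against 1.24% of all coding promoter summits. CGATA, the core of the BEAF site, lies inside the DRE and overlaps it. It was in 8 of 16 paralog promoters (50%) and 27 of 32 subunit gene promoters (84.4%), against 47.4% of all coding promoters.

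Other motifs ran in both directions. The core of motif 1, GGTCACAC, another housekeeping promoter element, was in 0 of 16 paralog promoters and 5 of 32 subunit gene promoters (15.6%), against 7.70% of all coding promoters. The core of the antioxidant response element, TGACNNNGC, which CncC binds with a Maf partner, was in 1 paralog promoter and 5 subunit gene promoters, against 8.63% of all. None of those 5 had an IDR summit, but neither did 22 of the 32 subunit genes. Among all coding promoters with an IDR summit, 9% had this element, near the share of all. GAGAG, the core of the GAGA factor site, was in 6 of 16 paralog promoters (37.5%) and 3 of 32 subunit gene promoters (9.38%), against 29.7% of all. GCCAT, the Pho core, was in 56.2% of paralog promoters and 31.2% of subunit gene promoters, against 41.2% of all. TATAAA, the TATA box, was in 5 paralog promoters and 13 subunit gene promoters, against 45.8% of all. Of the 2 E-boxes, CACGTG was in no proteasome gene promoter and CAGCTG in 1 paralog and 1 subunit gene promoter, against 4.20% and 17.7% of all. A match is a run of letters, and binding of these factors was not measured.

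**Figure D4:**
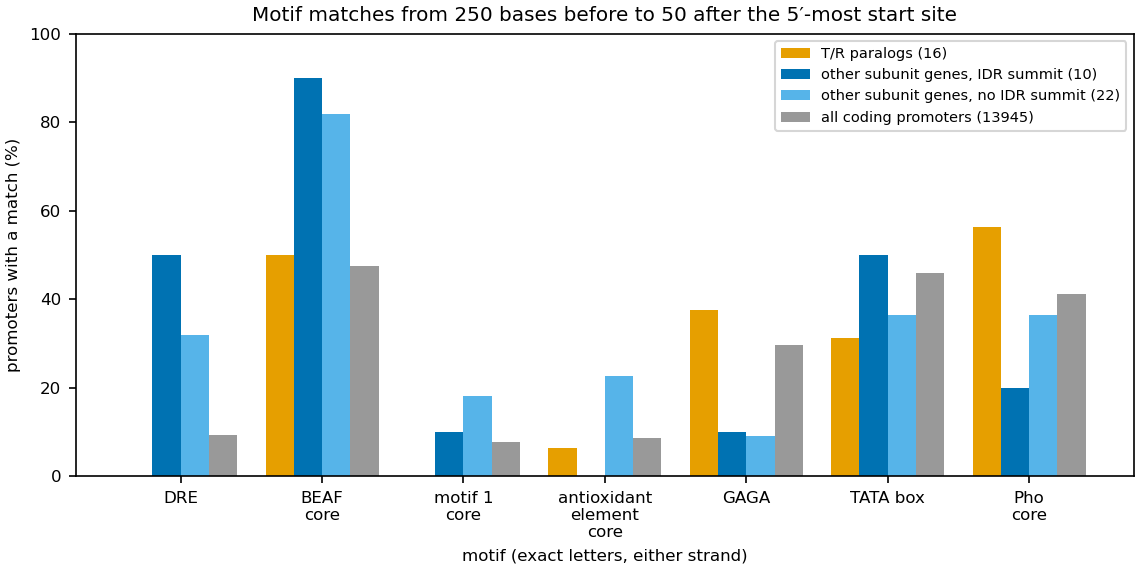
Percent of promoters with an exact motif match on either strand, from 250 bases before to 50 after the 5′-most start site, for paralogs, subunit genes with and without an IDR promoter summit and all coding genes. The DRE is at 0 in paralogs and high in both classes of subunit genes, while GAGAG and GCCAT are higher in paralogs than in either class of subunit genes.

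Other genes of the ubiquitin-proteasome system were read in the same way, from 5 lists with 33 matched genes. An IDR promoter summit was found for 9 of the 33, near the 22.9% of all coding genes, and the lists are too short to be read against that share one by one. Of 10 genes for assembly, activators and associated factors, Pomp, the maturation chaperone of the core particle, had a summit (signal 886, at −276 bp). Of 4 regulators of proteasome gene transcription, cnc, which encodes the activator CncC, had the strongest summit of these lists (signal 1833, at 345 bp), and Keap1, which encodes its inhibitor, had a weak one (signal 305, at −129 bp). Of 5 genes for ubiquitin supply, Ubi-p63E (607), Ubi-p5E (347) and RpL40 (252) had one. Of 5 segregase genes, which extract ubiquitinated proteins, Npl4 (392) and Plap (452) had one. In the COP9 signalosome, a complex related to the lid, 1 of 9 genes had a summit, CSN2, listed under the symbol alien (signal 958, at −146 bp). Each of these 9 genes also had a promoter summit in all 3 replicate lists.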

How the data were processed

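ChIP-seq peak lists of 3 biological replicates of 1 group were used as deposited by the authors. Per the deposited file records, peaks were called on dm6 for each replicate and for the replicates pooled, against the same 1 control alignment, and the IDR list derives from these. The names of caller and aligner were not given in the sources used here. The deposited signal of a peak ranked it within its list. The deposited −log10 q-value was not used, and the deposited summit position, another column, located each peak. All 10239 IDR rows were found in the pooled list, so these 2 lists are not independent. No list gives read numbers, so depth is unknown.

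Genes and start sites on 6 chromosome arms came from Ensembl release 115 and sequence from the release 6 reference assembly in RefSeq, the same build. Distances and counts were computed with Python 3.11.15, pandas 2.3.3 and numpy 2.4.6 and tested on simulated data. The 9 motifs were searched in 300 bases per gene. Of 35 pathway symbols, PA200 and Ecm29 were not matched. Genes with an IDR promoter summit, those in all 3 replicate lists, those next to the 500 bp limit, all paralogs and pathway genes with an IDR promoter summit are named by rule, and the other genes with summits outside the IDR list were named after their values were seen. The members and lists were chosen with earlier results of these data known. The antibody label names CG8159, and the description, which names GFP, was followed. Alternatives were other promoter distances, other rules for the start site, stricter peaks and IDR peaks held by each pair of replicates.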

Additional observations from a re-analysis of the deposited data

How the results depend on the processing

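Counts of proteasome genes with an IDR promoter summit rest on small numbers. Promoter distances of 250 and 1000 bp gave the same 10 genes in all, 4 of the core and 6 of the regulatory particle. With the 5119 IDR peaks of highest signal the counts were 4 in all, 1 core and 3 regulatory. The core count was 2 where the peak had to overlap the start site, where each summit counted only for the nearest start site, and where all 3 replicates had to hold the peak. Each replicate was also set aside in turn, by keeping only IDR peaks held by the strongest 10239 peaks of both others. The core count was then 2 each time, the regulatory count 5 to 6 and the total 7 to 8. The paralog count was 0 and the upstream share 100% under every one of these settings. Most of the settings can only remove sites counted at 500 bp, so under those both values were fixed in advance. With the strongest 10239 peaks in place of all 30000, the count was 9 and not 17 in replicate 1, and 8 and not 19 in replicate 2. Of 66 alternatives, 55 were within 1.5 times the reported count or within the spread of the replicates. These 55 include the paralog counts and upstream shares that could not change, so the number overstates how stable the results are. In the IDR list the core count stayed below the regulatory count in every alternative. The shares of all coding genes were not recomputed for most alternatives. No paired analysis was possible because all samples belong to 1 group. Depth is unknown, so a promoter without a summit may lie under the detection limit.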

Other observations

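One short run, GTAAC on either strand, was noticed when the summit sequences were read. It is in 5 of the 10 summit windows of 101 bases (Prosbeta2, Rpn3, Rpn5, Rpn11 and Rpn13), against 12.7% of the windows of all coding promoter summits (370 of 2904) and 9.33% of windows 300 bp to either side of them (542 of 5808). These 5 genes include the 4 with the highest IDR signal among the 10. The run was chosen from these same sequences, and no test was made.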
